A study of Mus musculus with 14 samples.

Results

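Livers of male mice without a working Abcb11 gene (genotype Abcb11-/-, n = 3) were compared with livers of wild-type males (n = 3), all of the C57BL/6J inbred strain and 52 weeks old. These 6 libraries are part of a series of 14 liver RNA-seq libraries that also holds wild-type females (n = 2), non-tumour liver of knockout females (n = 3) and tumour tissue of knockout females (n = 3). The design text gives 3 mice per group. The labels name neither the construction of the knockout allele nor the hour at which the livers were taken, and they do not say whether the male knockout livers carried tumours. Of 54532 genes in the deposited count table, 17348 genes outside chromosomes X and Y passed the low-count filter and are described here.

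Abcb11 encodes the bile salt export pump, an ATP-driven transporter in the canalicular membrane of hepatocytes that moves bile salts from the cell into bile. Hepatocytes make bile acids from cholesterol, take them back up from portal blood through basolateral carriers, and sense them with the nuclear receptor FXR (Nr1h4), which lowers synthesis and uptake and raises export. When the canalicular route is lost, bile acids can leave through other pumps and can be hydroxylated, sulfated or glucuronidated by enzymes under the receptors CAR (Nr1i3) and PXR (Nr1i2).

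Levels are CPM (counts scaled to a common library size by the trimmed mean of M values), listed for libraries 1, 2 and 3 of a group in that order. Differences are log2 fold changes, knockout minus wild type. Their standard errors (± or SE) are approximate, since edgeR's quasi-likelihood fit gives none. They were worked back as the size of the change divided by the square root of the test's F statistic. A gene is called when its adjusted p in edgeR's quasi-likelihood test (Benjamini-Hochberg over all genes) is under 0.05, and "rose" and "fell" are used only for called genes. Library totals were 14745140 to 19346354 counts in the wild-type males and 14774037 to 18847828 in the knockout males. The groups differed in the number of genes detected, in a clock score and in the nuclear RNA Malat1. The wild-type males had 15308 to 17520 genes with at least 1 count, the lowest values of all 14 libraries, against 18862 to 21027 in the knockout males. A clock score (mean log2 CPM of 8 genes that peak in the evening minus that of 4 that peak in the morning) was -1.852, -1.42 and -1.521 in the wild-type males and 3.455, 2.704 and 3.151 in the knockout males, so clock phase and genotype cannot be told apart within the males. Malat1, an abundant noncoding RNA of the nucleus, stood at 129, 131 and 181 CPM in the wild type and at 744, 605 and 816 CPM in the knockout (difference 2.30 ± 0.30, adjusted p = 0.000185). Within the groups, wild-type male 3 stood apart in lymphocyte markers and knockout male 2 in bile duct markers, as given with the cell types. Mitochondrial genes took 28.55%, 33.85% and 42.17% of counts in the wild type and 35.68%, 33.75% and 15.74% in the knockout, and those ranges overlap. Knockout male 3 stood apart in this share, which was the lowest of all 14 libraries.

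The targeted gene was read first. Abcb11 stood at 307, 322 and 298 CPM in the wild-type males and at 76.5, 62.1 and 104 CPM in the knockout males (difference -1.94 ± 0.34, adjusted p = 0.00127). The groups did not overlap, and the knockout libraries kept 1029, 850 and 1832 counts on the gene (chromosome 2, 69238282 to 69342616, GRCm38). The deleted part of the gene is not named in the labels, so a transcript without it can still be counted, and the remaining counts do not measure working pump. With the clock score as a covariate across all 14 libraries the difference was -1.464 and the call was lost (adjusted p = 0.19). Within 5 Mb of Abcb11, 15 of 68 tested genes (22.1%) were called.

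In all, 3589 of the 17348 genes were called (20.7%), of which 2476 rose (14.3%) and 1113 fell (6.42%). The 3 and 3 libraries did not overlap for 4010 genes that were higher (23.1%) and 2127 that were lower (12.3%) in the knockout. Changes of at least 4-fold were called upward for 1098 genes and downward for 247. The share of upward calls moves with the scaling: 2072 rose and 1415 fell with DESeq2's size factors in edgeR (RLE), and DESeq2 itself gave 2570 and 1893. The median difference of all tested genes was 0.111, against 0 under RLE, and changes are read relative to that shift. A fit of the 6 male libraries alone called 2013 genes. With the clock score as a covariate 362 genes were called, although 3574 of the 3589 kept their sign. Leaving out 1 male library gave from 2398 genes (without knockout male 3) to 3940 (without wild-type male 3). Most list counts below are therefore given with their range over those 6 fits and their count with the covariate, where these differ. They are also read beside the shares over all tested genes, 14.3% that rose and 6.42% that fell.

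**Figure D1:**
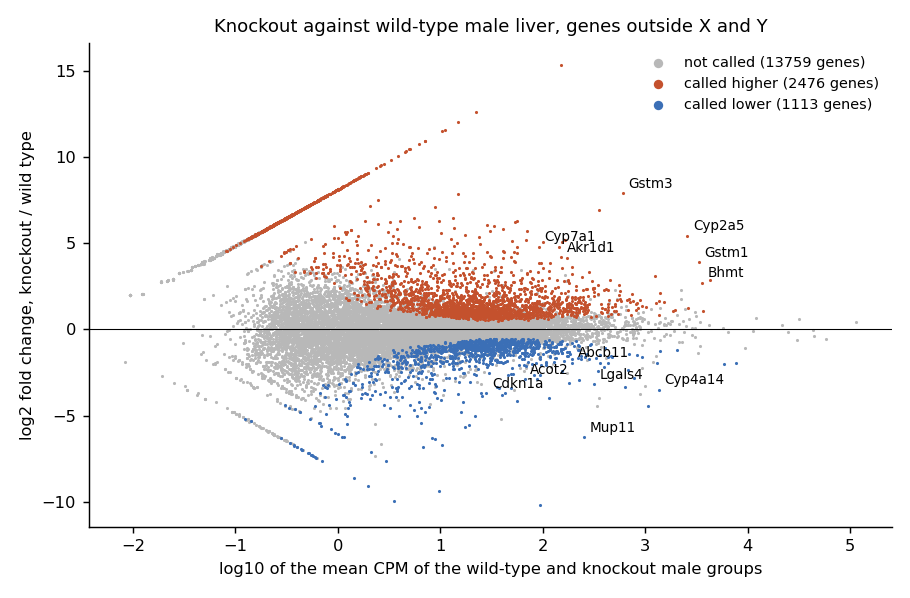
Each point is 1 of the 17348 tested genes outside X and Y, placed by its mean CPM (horizontal, log10) and its log2 fold change, knockout over wild type (vertical), and coloured by call. The 2476 orange genes rose and the 1113 blue genes fell; the straight upper and lower edges are genes without a count in 1 of the groups, whose fitted fold depends on the prior count.

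Of the 15 protein-coding genes with the largest called rise, 14 had no count in any wild-type male. There were 363 genes with 0 counts in all 3 wild-type males and more than 3 counts in each knockout male, against 12 of the reverse kind. Folds for such genes are lower bounds against a floor of 3 counts per wild-type library and cover counting error only. Ptgds, a prostaglandin D synthase of the lipocalin family, had 2166, 2156 and 10503 counts in the knockout males (at least 734-fold higher). Clec2h, a C-type lectin, had 531, 407 and 1134 counts (at least 139-fold). Tmprss4, a membrane serine protease, had 459, 308 and 585 counts (at least 105-fold). Each of these 3 genes had at least 308 counts in every knockout library and none in the wild type. Slc1a1, a glutamate transporter, had 184, 163 and 301 counts (at least 55.5-fold). The other genes of this kind were Gipc2 (at least 47.1-fold), Scn2a (36.4-fold), 4933411K16Rik (24.2-fold), Pde6c (21.5-fold) and Lrtm2 (18-fold). The lower number of genes detected in the wild-type males moves with this pattern, and its part in it was not tested.

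The other gene of the 15, Gstm3, a glutathione S-transferase, had counts in both groups and rose from 2.52, 7.87 and 4.74 CPM to 1024, 725 and 1882 CPM (7.91 ± 0.73, adjusted p = 2.39e-05). The falls of largest size fell in several kinds of gene. Pdgfrl, a PDGF-receptor-like protein, stood at 19.5, 11.5 and 31.4 CPM in the wild type and at 0, 0.146 and 0.396 CPM in the knockout (-6.70 ± 0.72, adjusted p = 5.05e-05). Fam209 fell by 6.29 (SE 0.81) and Rad51b, a homologous recombination gene, by 4.79 (SE 0.69). Myom1, a sarcomere M-band protein, stood at 91.5, 96.2 and 49.5 CPM against 5.73, 9.36 and 3.17 CPM (-3.71 ± 0.38, adjusted p = 4.46e-05). Slc16a13, a monocarboxylate transporter, fell by 4.57 (SE 0.87), Peg3, an imprinted zinc-finger gene, by 3.85 (SE 0.87) and Acnat2, an acyl-CoA amino acid N-acyltransferase, by 4.14 (SE 0.58). The groups did not overlap for these 7 falling genes, but the rule that chose genes by size required this. Dio1, the deiodinase that activates thyroid hormone in liver, stood at 103, 114 and 49.1 CPM against 7.29, 5.85 and 11.9 CPM (-3.41 ± 1.02, adjusted p = 0.0375), but it lost its call when any of the libraries except wild-type male 3 was left out (adjusted p up to 0.11).

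Bile acid export genes other than Abcb11 were mostly higher in the knockout. Of 15 tested pumps and carriers 7 rose and 1, Abcb11, fell, with a median difference of 1.16 (rising members: 6 to 7 with 1 library left out, 2 with the clock covariate). Slc51b, the beta subunit of the basolateral organic solute transporter, had no count in the wild type and 335, 248 and 337 counts in the knockout (at least 84.4-fold higher). Its partner Slc51a was listed at 0, 0 and 0.404 CPM against 0.595, 0.877 and 0.452 CPM and was not called. Abcc4, a basolateral pump of bile acid conjugates, stood at 0.517, 2.15 and 4.29 CPM against 28, 24.8 and 24 CPM (3.44 ± 0.60, adjusted p = 0.00168). The knockout libraries lay close together and above all wild-type libraries. Abcc3, the basolateral pump of glucuronide conjugates, rose from 124, 147 and 69.1 to 329, 242 and 364 CPM (1.46 ± 0.33, adjusted p = 0.00717). Abcc2, the canalicular pump of bilirubin and other conjugates, rose from 175, 247 and 174 to 609, 487 and 538 CPM (1.46 ± 0.32, adjusted p = 0.00546). Neither pair of groups overlapped, and both lost their calls with the clock covariate (adjusted p = 0.29 for Abcc3 and 0.57 for Abcc2). Abcb1a, a multidrug resistance pump, stood at 0, 0 and 2.57 CPM against 23.8, 21.7 and 34 CPM (4.83 ± 1.22, adjusted p = 0.0176; 0.082 in the fit of the males alone). Atp8b1, the phospholipid flippase of the canalicular membrane, rose from 6.02, 5.94 and 6.51 to 16.1, 19.7 and 19.6 CPM (1.58 ± 0.26, adjusted p = 0.000964) and was called in every fit. Abcb4, the phospholipid floppase that protects bile ducts from bile salts, stood at 580, 694 and 573 against 453, 482 and 432 CPM and was not called (-0.43 ± 0.23, adjusted p = 0.197). Of the sterol pump's subunits, Abcg8 was called (1.16 ± 0.34) but lost the call without wild-type male 1, wild-type male 3, knockout male 1 or knockout male 3 (adjusted p 0.055 to 0.11), and Abcg5 was not called (0.82 ± 0.29, adjusted p = 0.0532). Abcc6, Abcg2, Abcc1 and Abcb1b had differences of 0.04, -0.16, -0.79 and -0.70 and were not called.

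Uptake carriers went in both directions: 3 of 8 rose and 1 fell, with a median of 0.25 (2 rose in each fit with 1 library left out; 2 rose and none fell with the clock covariate). Slc10a1, the sodium-dependent bile acid carrier NTCP, stood at 78.7, 95.8 and 50.9 CPM in the wild type and at 195, 134 and 360 CPM in the knockout (1.61 ± 0.34, adjusted p = 0.00464; 0.22 with the clock covariate). Slco1a4, an organic anion carrier, rose from 18.6, 37.1 and 17.2 to 128, 109 and 163 CPM (2.46 ± 0.50, adjusted p = 0.00351). Slco1a1, another member of that family and a gene of higher level in male liver, fell from 57.3, 117 and 79.9 to 20.4, 12.9 and 9.55 CPM (-2.57 ± 0.43, adjusted p = 0.00124). None of the 3 overlapped between groups, so carriers of the same family differed in direction. Slc22a7, an organic anion carrier, was called (2.33 ± 0.74, adjusted p = 0.0425) but in none of the 6 fits with 1 library left out (adjusted p 0.054 to 0.12). Slco1b2, Slco2b1 and the ileal-type carrier Slc10a2 were not called, with differences of -0.33, 0.46 and 0.03.

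**Figure D2:**
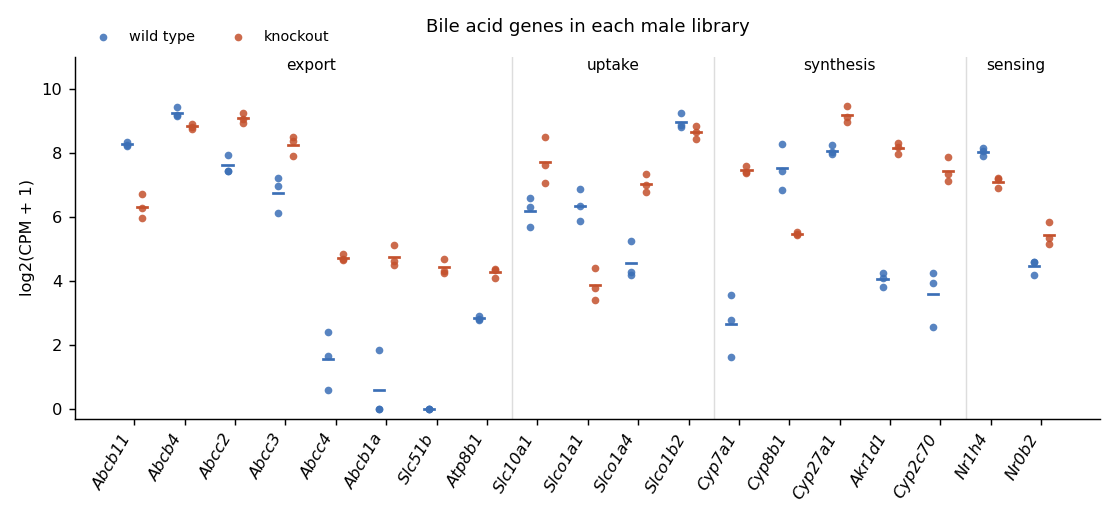
Points are single male libraries on the scale log2(CPM + 1), bars are group means, and genes are ordered by role. Cyp7a1, Akr1d1, Cyp2c70, Abcc4 and Slc51b lie far above the wild type in all 3 knockout livers, while Abcb11, Slco1a1, Cyp8b1 and Nr1h4 lie below it.

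Genes of bile acid synthesis were higher at the first step and at later steps of the classic pathway. Of 17 tested members 9 rose and none fell, with a median of 0.77 (rising members: 6 to 9 with 1 library left out, 4 with the clock covariate). Cyp7a1, the rate-limiting hydroxylase of the classic pathway, stood at 2.07, 10.7 and 5.95 CPM in the wild type and at 164, 194 and 170 CPM in the knockout (4.82 ± 0.66, adjusted p = 0.000461). The lowest knockout level was far above the highest wild-type level. Akr1d1, the reductase that forms the saturated sterol ring, rose from 18, 13 and 16.2 to 293, 251 and 321 CPM (4.20 ± 0.31, adjusted p = 3.17e-06). Cyp2c70, the mouse enzyme that makes muricholic acids, rose from 14.4, 18.3 and 4.94 to 161, 138 and 237 CPM (3.84 ± 0.53, adjusted p = 0.000364). These 3 genes were called in every fit, the one with the clock covariate included. Akr1c6, a hydroxysteroid dehydrogenase, rose by 1.88 (SE 0.40) and Acox2, the peroxisomal oxidase of the side chain, by 1.54 (SE 0.27). Cyp27a1, the mitochondrial side-chain hydroxylase, stood at 260, 304 and 248 against 715, 564 and 506 CPM (1.14 ± 0.29, adjusted p = 0.0123), a call lost without wild-type male 1 or knockout male 1 (adjusted p = 0.055 in each). Amacr, Baat and Slc27a5, which epimerise the side chain, conjugate it to taurine and activate it, were called at 0.87, 0.77 and 1.20. Each of the 3 lost the call without wild-type male 3 or knockout male 3 and without 2 further libraries (adjusted p up to 0.12, 0.16 and 0.16), and under RLE scaling. Cyp8b1, the 12-alpha hydroxylase that sets the share of cholic acid, stood at 173, 310 and 114 CPM against 42.5, 43 and 44.9 CPM. Its groups did not overlap but the difference was not called (-2.20 ± 0.98, adjusted p = 0.139). Cyp7b1, of the alternative pathway, overlapped between groups (-0.14 ± 0.61).

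Of 18 tested sensors and liver transcription factors 4 rose and 2 fell, with a median of 0.05. Without wild-type male 1 or 2 there were 2 that rose, without knockout male 1 or 2 none fell, and with the clock covariate none was called. Nr1h4, the bile acid receptor FXR, stood at 238, 266 and 284 CPM against 149, 144 and 118 CPM (-0.94 ± 0.29, adjusted p = 0.0325), and Nr1h3, the oxysterol receptor LXR-alpha, fell by 0.73 (SE 0.22, adjusted p = 0.0313). The groups did not overlap for either, yet each call was lost without knockout male 1 or knockout male 2 (adjusted p 0.07 and 0.065 for Nr1h4, 0.072 and 0.12 for Nr1h3), for Nr1h4 also without wild-type male 2 or knockout male 3, and for Nr1h3 without wild-type male 1. Nr0b2, the repressor SHP that FXR induces, stood at 23.4, 23.3 and 17.1 against 56.6, 39.7 and 35 CPM and was not called (1.04 ± 0.62, adjusted p = 0.26). Nr1i2, the receptor PXR, rose from 109, 91.8 and 111 to 249, 194 and 185 CPM (1.01 ± 0.28, adjusted p = 0.019; lost without wild-type male 1, wild-type male 2 or knockout male 1, adjusted p up to 0.086). Its relative CAR, Nr1i3, overlapped between groups (0.43 ± 0.33). Cebpa, a transcription factor of hepatocytes, rose by 1.16 (SE 0.24), while Hnf4a, at 369, 333 and 268 against 382, 357 and 378 CPM, was not called (0.20 ± 0.25). None of the 4 rising factors was called with the clock covariate.

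Enzymes known as targets of CAR and PXR rose in the majority of cases. Of 23 tested members 15 rose and 1, the stress gene Gadd45b, fell, with a median of 1.48 (rising members: 10 to 15 with 1 library left out, 3 with the clock covariate). Cyp2a5, a coumarin hydroxylase, stood at 136, 154 and 55.2 CPM in the wild type and at 5207, 3501 and 6453 CPM in the knockout (5.46 ± 0.75, adjusted p = 0.000304), with reads that its near copy Cyp2a4 (5.02) may share. Cyp3a25 rose from 166, 464 and 127 to 2697, 2213 and 1736 CPM (3.13 ± 0.47, adjusted p = 0.000554). Papss2, which makes the sulfate donor for sulfation, rose from 31, 42 and 21.3 to 201, 146 and 195 CPM (2.52 ± 0.34, adjusted p = 0.000271). Akr1b7, an aldose reductase relative, had no count in the wild type and was at least 16-fold higher. The groups did not overlap for any of these genes. Cyp2b10, the gene most used as a marker of CAR, was near 0 in both groups (1.42, 0 and 0.151 against 0.298, 0 and 2.04 CPM) and was not called; it was chosen after its values were seen. Of 14 tested sulfotransferases 5 rose and none fell (3 to 4 with 1 library left out, 2 with the clock covariate; median 1.14, or 0.05 with genes without wild-type counts at their bound). Sult1b1 rose by 3.55 (SE 0.44) and Sult1a1 by 2.16 (SE 0.31), and both were called in every fit. Sult1e1, the estrogen sulfotransferase, had no count in the wild type and 81, 83 and 314 in the knockout (at least 28.1-fold higher), but its call (adjusted p = 0.0485) was lost in each of the 6 fits with 1 library left out (adjusted p 0.07 to 0.12).

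Glutathione and antioxidant genes that the factor NRF2 is known to induce showed the most upward calls among the detoxification lists. Of 32 tested members 25 rose and none fell, with a median of 1.60 (18 to 25 with 1 library left out, 7 with the clock covariate). Nqo1, a quinone reductase, stood at 3.17, 2.36 and 1.61 CPM in the wild type and at 36.8, 31.1 and 39.6 CPM in the knockout (3.92 ± 0.37, adjusted p = 2.39e-05). Gstm1, the most studied mu-class transferase, rose from 456, 488 and 317 to 5862, 5182 and 7719.5 CPM (3.90 ± 0.42, adjusted p = 5.67e-05), and Gstm6 rose by 2.33 (SE 0.25). Gpx2, a glutathione peroxidase of epithelia, had no count in the wild type and was at least 19.4-fold higher. These genes and Gstm3 were called in every fit, though members of the Gstm family are similar enough in sequence to share reads. Hmox1, Gclc, Srxn1, Gsr, Me1, Gstp1 and Slc7a11 were the 7 members not called. Hmox1, heme oxygenase, stood at 16.1, 16.5 and 12.8 against 23.5, 13.6 and 32.7 CPM, with overlap.

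Among the NRF2 genes, 28 matched a RefSeq promoter (GRCm38.p6, the 250 bases before the start), and 5 of the 28 (Gclm, Gsta3, Mgst1, Txnrd1 and Ugdh) held the core of the antioxidant response element, TGACNNNGC, on either strand, beside 10.2% of all 32851 promoters. All 5 rose. The promoters of Gclm and Ugdh are printed because these genes had the smallest p of the 5, so they were chosen from these data. The element is the known site of NRF2. Capitals mark each match, and a match is not evidence of binding. Gclm, the modifier subunit of glutathione synthesis (chr3:122245307-122245556, plus strand), stood at 115, 91.9 and 74.7 against 263, 301 and 325 CPM (1.66 ± 0.26), and its match lies 134 bases before the start. Ugdh, which makes the donor of glucuronidation (chr5:65435843-65436092, minus strand), stood at 145, 117 and 83.5 against 358, 337 and 426 CPM (1.70 ± 0.27), with the first of 2 matches 132 bases before the start.
Gclm: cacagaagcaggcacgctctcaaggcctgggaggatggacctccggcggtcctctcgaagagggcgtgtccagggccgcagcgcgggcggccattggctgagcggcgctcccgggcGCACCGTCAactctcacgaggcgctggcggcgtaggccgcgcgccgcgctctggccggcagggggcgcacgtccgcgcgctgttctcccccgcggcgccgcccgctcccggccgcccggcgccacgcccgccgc
Ugdh: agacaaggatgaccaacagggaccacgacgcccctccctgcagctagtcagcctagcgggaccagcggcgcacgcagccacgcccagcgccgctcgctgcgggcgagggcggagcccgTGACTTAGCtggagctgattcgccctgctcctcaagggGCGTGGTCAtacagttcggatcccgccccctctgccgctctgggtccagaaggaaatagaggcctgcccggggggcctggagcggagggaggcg

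Cholesterol synthesis was the list with the largest share of calls. Of 24 tested members 23 rose and none fell, with a median of 2.88 (21 to 23 with 1 library left out, 8 with the clock covariate). Sqle, squalene epoxidase, stood at 2.65, 4.08 and 2.98 CPM in the wild type and at 60.5, 66.9 and 49.6 CPM in the knockout (4.19 ± 0.43, adjusted p = 4.46e-05). Msmo1, the sterol methyl oxidase, rose from 5.5, 3.22 and 8.33 to 205, 187 and 194 CPM (5.09 ± 0.56, adjusted p = 7.84e-05). Cyp51, lanosterol demethylase, rose by 3.23 (SE 0.33) and Mvk, mevalonate kinase, by 4.49 (SE 0.50). These 4 genes were called in every fit and did not overlap between groups. Ggps1, which leads to geranylgeranyl groups and not to sterols, was the member not called (0.37 ± 0.23).

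The mean log2 CPM of the cholesterol list was 3.177, 3.195 and 3.24 in the wild-type males and 6.231, 6.186 and 6.006 in the knockout males. In the females, wild-type livers stood at 6.303 and 6.593 and non-tumour knockout livers at 4.327, 5.903 and 4.984, so the wild-type males were the lowest of all 14 libraries and the knockout males lay just below the wild-type females. The wild-type females had clock scores of 1.726 and 1.266, between those of the 2 male groups. The difference of the knockout effect between females and males was called for 23 of the 24 members, against 1902 of all 17348 genes (11%).

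Evening clock genes were higher and morning clock genes lower in the knockout males. Of 8 evening genes 6 rose (3 to 6 with 1 library left out, 3 without wild-type male 2, wild-type male 3 or knockout male 1; none with the covariate, which is built from them), with a median of 2.47, and of 4 morning genes 1 fell, with a median of -1.53. Tef, an output factor of the clock, stood at 38.3, 51.7 and 29.6 CPM against 319, 305 and 222 CPM (2.82 ± 0.48, adjusted p = 0.00113). Per3, a period gene, stood at 0, 3.36 and 1.01 CPM against 84.3, 96.3 and 61.8 CPM (5.82 ± 1.28, adjusted p = 0.0101), and Nr1d2, the repressor REV-ERB-beta, rose by 2.11 (SE 0.44). Arntl (BMAL1), the morning activator, stood at 19.9, 15 and 26.8 against 4.98, 6.07 and 6.39 CPM without overlap, but was not called (-1.82 ± 0.73, adjusted p = 0.0945). Npas2, its partner, was called (-3.06 ± 1.01, adjusted p = 0.0449) and lost the call without wild-type male 2 or 3 or knockout male 1 or 3 (adjusted p up to 0.14). The 2 groups thus differ in the phase that these genes mark, and cholesterol genes, bile acid synthesis and many other liver genes are known to cycle over the day. Genotype and hour cannot be told apart in these 6 livers.

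**Figure D3:**
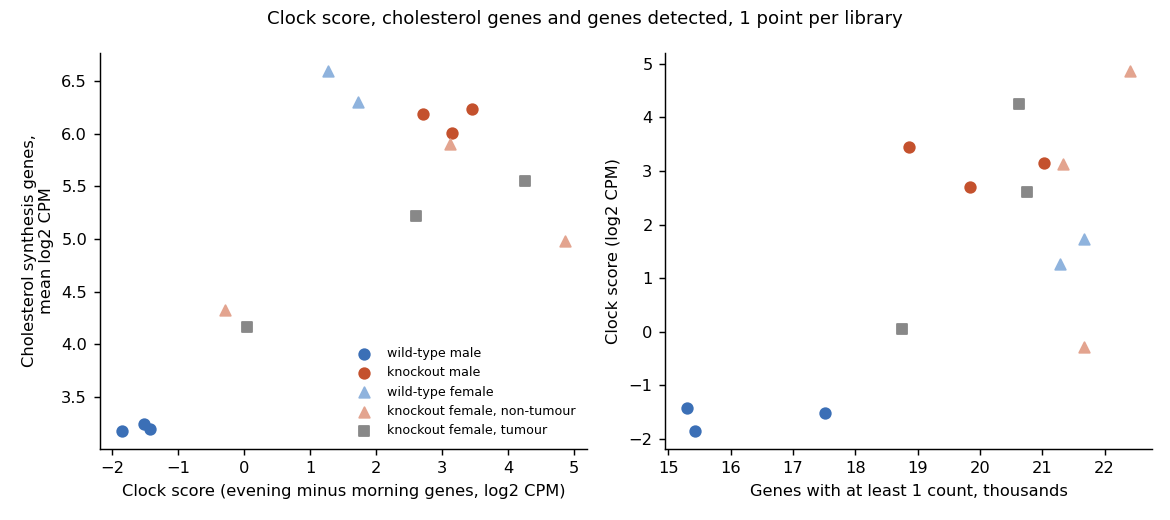
Each point is 1 of the 14 libraries; the left panel plots the mean log2 CPM of the cholesterol synthesis list against the clock score, and the right panel the clock score against the number of genes with at least 1 count. The 3 wild-type males are lowest on all 3 measures, and the knockout males lie among the female libraries.

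Of 11 clock genes with a RefSeq promoter, Ciart, Per1 and Tef held the E-box CACGTG, the known site of BMAL1 and CLOCK, on both strands within the 250 bases before the start, beside 6.02% of all promoters. Of 16 cholesterol genes with a promoter, Hmgcs1 held TCACCCCAC, a sterol regulatory element searched on both strands and added after the data were seen, beside 0.496% of all promoters. The promoters of 3 rising members are printed to show those letters in capitals. Tef (chr15:81802423-81802672, plus strand) has its match 127 bases before the start. Ciart, a clock repressor (chr3:95882229-95882478, minus strand), rose by 3.51 (SE 0.96) and has 3 matches, the first at 116 bases. Hmgcs1, the HMG-CoA synthase of the cytosol (chr13:119690101-119690350, plus strand), stood at 252, 194 and 229 against 915, 1272 and 480 CPM (1.98 ± 0.62), and its match lies 137 bases before the start. The FXR inverted repeat, searched without mismatch on both strands, was found in no promoter of 47 genes of the bile acid lists, beside 0.0244% of all promoters.
Tef: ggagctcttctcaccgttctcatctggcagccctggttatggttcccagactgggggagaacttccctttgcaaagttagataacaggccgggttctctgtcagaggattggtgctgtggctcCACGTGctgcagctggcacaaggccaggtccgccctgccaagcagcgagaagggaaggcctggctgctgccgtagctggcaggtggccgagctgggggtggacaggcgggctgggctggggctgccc
Ciart: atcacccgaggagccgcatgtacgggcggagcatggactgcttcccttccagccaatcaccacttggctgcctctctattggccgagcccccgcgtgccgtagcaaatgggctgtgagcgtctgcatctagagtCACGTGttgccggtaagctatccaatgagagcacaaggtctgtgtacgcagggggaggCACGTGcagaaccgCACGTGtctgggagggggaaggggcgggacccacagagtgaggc
Hmgcs1: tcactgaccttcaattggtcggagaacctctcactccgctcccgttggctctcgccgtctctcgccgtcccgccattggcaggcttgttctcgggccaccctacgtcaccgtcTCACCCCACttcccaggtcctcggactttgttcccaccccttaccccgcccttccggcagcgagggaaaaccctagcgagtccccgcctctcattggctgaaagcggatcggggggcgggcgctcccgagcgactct

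Fatty acid genes divided by direction. Of 20 tested lipogenesis genes 7 rose and none fell (median 1.22; 5 to 6 with 1 library left out, none with the clock covariate). Srebf1, the factor that drives fatty acid synthesis, stood at 15.2, 19.7 and 20.1 CPM against 180, 167 and 75.9 CPM (2.94 ± 0.57, adjusted p = 0.00333). Acss2, the cytosolic acetyl-CoA synthetase, rose by 2.80 (SE 0.42), Fads1, a desaturase, by 2.23 (SE 0.37) and Pklr, liver pyruvate kinase, by 3.65 (SE 0.55). Neither these genes nor Srebf1 overlapped between groups, and all 4 lost their calls with the covariate (adjusted p 0.0675 to 0.44).

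Genes of fatty acid oxidation and of the receptor PPAR-alpha went the other way: of 27 tested members 9 fell and 2 rose, with a median of -0.64 (falling members: 9 to 11 with 1 library left out, 2 with the clock covariate). Cyp4a14, an omega-hydroxylase and a much used PPAR-alpha target, stood at 2971, 2978 and 1479 CPM in the wild type and at 205, 209 and 248 CPM in the knockout (-3.49 ± 0.35, adjusted p = 3.67e-05). Acot2, a mitochondrial acyl-CoA thioesterase, fell from 134, 126 and 93.6 to 14.1, 20.1 and 13.1 CPM (-2.90 ± 0.34, adjusted p = 9.09e-05). Both were called in every fit and neither overlapped. Its cytosolic relative Acot1 stood at 291, 282 and 78.4 against 7.07, 6.65 and 27.2 CPM (-3.99 ± 0.73, adjusted p = 0.00308), and Cyp4a31 fell by 3.53 (SE 0.69). Ehhadh, the bifunctional enzyme of peroxisomal oxidation, stood at 1870.3, 1749 and 464 against 145, 134 and 302 CPM (-2.81 ± 0.50, adjusted p = 0.00144). In Acot1 and Ehhadh wild-type male 3 and knockout male 3 approached each other without overlap. Ppargc1a, a coactivator, rose by 2.62 (SE 0.42), and the receptor gene Ppara was not called (0.13 ± 0.34; named after its values were seen).

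Of 15 lipid droplet genes 3 fell and 2 rose. Falling members numbered 1 without knockout male 1 or 2 and up to 4 without wild-type male 3, rising members 1 to 2, and none was called with the clock covariate. Plin2, the main coat protein of hepatocyte droplets, stood at 1677, 1362 and 370 against 176, 147 and 337 CPM (-2.37 ± 0.57, adjusted p = 0.00991). Cidea, a droplet fusion protein typical of fat-laden liver, had 82, 151 and 840 counts in the wild type and 1 count over the 3 knockout libraries (ratio 976, exact 95% interval 175 to 38600 for counting error only). The wild-type libraries themselves spanned a wide range, and the call (adjusted p = 0.0149) was lost without any 1 of the knockout males (adjusted p 0.055 to 0.086). Plin5 fell by 1.16 (SE 0.32) with overlap and Cideb rose by 2.37 (SE 0.58). Of these, Plin5 lost its call without wild-type male 2, knockout male 1 or knockout male 2 (adjusted p up to 0.073) and Cideb without knockout male 3 (0.073).

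Genes of glucose and amino acid metabolism were called in 1 direction only. Of 18 tested glucose and glycogen genes 6 rose (median 1.005; 4 to 6 with 1 library left out, 2 with the clock covariate), and of 27 urea cycle and amino acid genes 10 rose (median 0.90; 6 to 11 with 1 library left out, 6 without knockout male 3, and 1 with the covariate). Slc2a2, the glucose carrier GLUT2, stood at 21.5, 30.3 and 32.3 CPM against 318, 339 and 403 CPM (3.65 ± 0.41, adjusted p = 7.02e-05), with no overlap. Pygl, liver glycogen phosphorylase, rose by 1.27 (SE 0.26) and Ugp2, which makes UDP-glucose, by 1.81 (SE 0.36), while the gluconeogenic genes Pck1 and G6pc, named after their values were seen, were not called (1.24 ± 0.69 and 0.56 ± 0.56). Bhmt, betaine-homocysteine methyltransferase, rose from 1053, 994 and 765 to 6601, 4774 and 7238 CPM (2.73 ± 0.38, adjusted p = 0.000309) and was called in every fit. Hal, histidine ammonia-lyase, rose by 2.37 (SE 0.53) and Prodh, proline dehydrogenase, by 1.77 (SE 0.36). Ass1 and Arg1, of the urea cycle, rose by 2.14 (SE 0.53) and 1.64 (SE 0.42), Ass1 losing its call without knockout male 3 (adjusted p = 0.051).

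The liver of adult mice differs between the sexes under control of pulsed growth hormone, and genes of both patterns changed in the knockout males. Of 25 tested genes known to be higher in males 5 fell and 2 rose, with a median of -1.69, and of 32 known to be higher in females 11 rose and 1 fell, with a median of 0.85 (0.26 with genes without wild-type counts at their bound). Male-biased genes that fell numbered 3 (without knockout male 2) to 6 with 1 library left out and none with the clock covariate, and those that rose 2 to 4 and 1. Female-biased genes that rose numbered 7 (without wild-type male 1 or knockout male 1) to 9 and 3 with the covariate. Of all 33 genes of the female-biased list, tested or not, 7 had no count in any of the 6 male libraries. Those genes were thus absent from the knockout males too. Mup11, a major urinary protein, stood at 554, 719 and 232 CPM against 11.2, 1.97 and 6.28 CPM (-6.27 ± 0.79, adjusted p = 0.00058), with reads that near copies may share. The direction was not shared by the whole family, since Mup20, chosen after its values were seen, stood at 880, 1052 and 307 against 3509, 1744 and 5815 CPM (2.31 ± 1.29, not called). Serpina1e, an alpha-1-antitrypsin of males, stood at 3296, 2267 and 584 against 73.3, 118 and 96.5 CPM (-4.42 ± 1.39, adjusted p = 0.0452), a call lost without any 1 library except wild-type male 3 (adjusted p up to 0.13). Keg1 and Selenbp2 rose against the list's direction, by 3.96 (SE 0.31) and 2.75 (SE 0.50). Cyp2g1, a female-biased P450, had no count in the wild-type males and 106, 76 and 114 counts in the knockout males (at least 25.9-fold higher). Cyp3a16 had 10, 10 and 46 counts against none (at least 3.4-fold higher). Nipal1 and Fmo2 rose by 3.09 (SE 0.37) and 1.77 (SE 0.37). Of 22 genes of the growth hormone and STAT5 axis 6 rose and none fell (median 0.51; 5 to 6 with 1 library left out, 2 with the covariate). Cish and Socs2, STAT5 targets that damp the signal, stood 1.98 (SE 0.27) and 1.33 (SE 0.31) higher, the receptor gene Ghr 1.19 (SE 0.28) and the estrogen receptor gene Esr1 1.71 (SE 0.27).

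Plasma protein genes changed little as groups. Of 29 acute phase genes 1 rose, Orm3, an orosomucoid, whose call (4.15 ± 1.29, adjusted p = 0.0452) was lost in 5 of the 6 fits with 1 library left out, the exception being without wild-type male 1. With the clock covariate 2 acute phase genes rose. Of 28 clotting and complement genes 6 rose (21.4% called, beside 14.3% rising of all genes), with a median of 0.58. Rising members numbered 3 without wild-type male 3 or knockout male 3, and 2 with the clock covariate. Complement C2 stood at 14, 9.95 and 13.4 CPM against 55.7, 50.9 and 67.6 CPM (2.22 ± 0.22, adjusted p = 4.1e-05), and Serpind1, heparin cofactor II, rose by 1.68 (SE 0.31). Of 21 lipoprotein genes 3 rose and 1 fell (19% called, beside 20.7% of all genes). In each fit with 1 library left out 2 rose, and 1 rose with the covariate. Scarb1, the HDL receptor, rose from 31.5, 43.1 and 37.7 to 152, 141 and 227 CPM (2.21 ± 0.39, adjusted p = 0.00131). Abca1, the cholesterol exporter, rose by 0.995 (SE 0.208). Apoa4 stood at 1130.5, 1798 and 562 against 83.1, 198 and 66.7 CPM (-3.33 ± 0.95, adjusted p = 0.0273), a call lost without wild-type male 2, knockout male 1 or knockout male 3 (adjusted p up to 0.10). Of 12 periportal genes 5 rose, with a median of 1.76 (3 without knockout male 3, none with the clock covariate). Of 18 pericentral genes 4 rose (22.2% called, beside 14.3% rising of all genes), with a median of 0.46. Only 0 to 1 of the pericentral genes rose in the fits with 1 library left out, and 3 with the clock covariate. Glul, the defining pericentral enzyme, stood at 1215, 692 and 428 against 768, 638 and 1102 CPM, with overlap.

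Hepatocyte identity genes were present in every library, and none of 18 was called. Their summed level was 77290, 63950 and 33390 CPM in the wild type and 83650, 85200 and 84860 CPM in the knockout, with wild-type male 3 lowest. The defining fat markers Adipoq and Lep and the muscle markers Ckm, Myh1, Myh4 and Tnnc2 were at 0 in all 6 libraries. The adipocyte list's sum of 197.8 to 216.8 against 859 to 896.4 CPM came almost wholly from Car3, which hepatocytes also express (170, 171 and 174 against 862, 801 and 874 CPM, not called). In bulk tissue, fewer cells of a type and less RNA per cell cannot be told apart.

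Endothelial genes were lower in the knockout: of 23 tested markers 8 fell and none rose, with a median of -0.89 (4 without knockout male 1, 5 without knockout male 3, 11 without wild-type male 3, none with the clock covariate). Their summed level was 860.3, 844 and 647.7 CPM in the wild type and 407.6, 437.9 and 349.5 CPM in the knockout, without overlap. Stab1, a scavenger receptor of sinusoids, fell from 265, 207 and 139 to 69.3, 80.4 and 47.4 CPM (-1.63 ± 0.28, adjusted p = 0.00111), and Clec4g, a sinusoidal lectin, from 37.2, 45.9 and 33.4 to 16.4, 15.1 and 16.9 CPM (-1.27 ± 0.25, adjusted p = 0.00328). Ehd3 and Pecam1 fell by 0.95 (SE 0.23) and 1.18 (SE 0.30), and Pecam1 lost its call without knockout male 3 (adjusted p = 0.056). Of 4 tested globin genes 2 fell, Hba-a1 and Hba-a2, near copies of each other, with overlap between groups, and Hba-a1 lost its call without wild-type male 1 or 2 or knockout male 1 or 3 (adjusted p up to 0.14). Neither was called with the clock covariate.

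Bile duct and scar genes were not called higher in the male knockout livers. With the clock covariate no member of the cholangiocyte or fibrosis lists was called in either direction. Of 20 cholangiocyte markers none rose and 2 fell (Krt7 and Mmp7, both lost without wild-type male 1, knockout male 1 or knockout male 3, and Mmp7 without wild-type male 2, adjusted p up to 0.085 and 0.17), and the summed level was 152, 158.7 and 137.6 CPM against 108.7, 430.5 and 115.1 CPM. Knockout male 2 alone was high, with the duct marker and matricellular gene Spp1 at 326 CPM against 40.2 to 63.3 CPM in the other 5 libraries. Of 39 fibrosis and stellate cell genes none rose and 4 fell, with a median of -0.34. The 4 were Ctgf, a growth factor of scarring (-1.32 ± 0.36), Mmp14, a membrane protease (-1.39 ± 0.40), Ecm1 (-0.99 ± 0.30) and Timp2, a protease inhibitor (-0.97 ± 0.31). Each of these calls was lost in 3 or 4 of the 6 fits with 1 library left out, without knockout male 3 in every case (adjusted p = 0.072, 0.098, 0.11 and 0.089). Col1a1, the main scar collagen, named after its values were seen, stood at 4.98, 3.44 and 28 against 6.25, 27.8 and 5.77 CPM, with 1 high library in each group.

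Immune markers depended on wild-type male 3. The summed lymphocyte level was 31.31, 31.71 and 6392 CPM in the wild type and 102.8, 614.9 and 49.92 CPM in the knockout, and Ighm, the heavy chain of IgM, alone made up 5371 CPM of wild-type male 3. None of 20 lymphocyte markers was called with all libraries, at a median of -2.25, and without wild-type male 3 there were 5 that rose. Of 21 macrophage and monocyte genes none was called, and without that library 7 rose. Of 14 antigen presentation genes 2 rose (14.3% called, beside 14.3% rising of all genes), and without that library 10 rose. The 2 were B2m (1.11 ± 0.31) and H2-K1 (0.87 ± 0.26). Both lost their calls without wild-type male 1, wild-type male 2 or knockout male 1, and H2-K1 also without knockout male 2 or 3 (adjusted p up to 0.093 and 0.13). With the clock covariate none of the 14 was called. Of 12 Kupffer cell genes 2 rose (16.7% called, beside 14.3% rising of all genes), 1 to 3 with 1 library left out and 1 with the clock covariate. Slc40a1, the iron exporter ferroportin, rose from 33.8, 36.2 and 31.5 to 113, 94.9 and 120 CPM (1.69 ± 0.21, adjusted p = 0.000119). Cd5l also rose (1.32 ± 0.40, with overlap), but its call was lost without library 1 or 3 of either group (adjusted p up to 0.15). Of 15 neutrophil and chemokine genes 1 rose, the chemokine Cxcl1, from 3.04, 2.5 and 3.43 to 16.3, 26.7 and 20.4 CPM (2.81 ± 0.39, adjusted p = 0.000331), and it was called in every fit. The neutrophil genes S100a8 and Csf3r were lower without being called (-2.29 ± 0.87 and -1.09 ± 0.41).

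**Figure D4:**
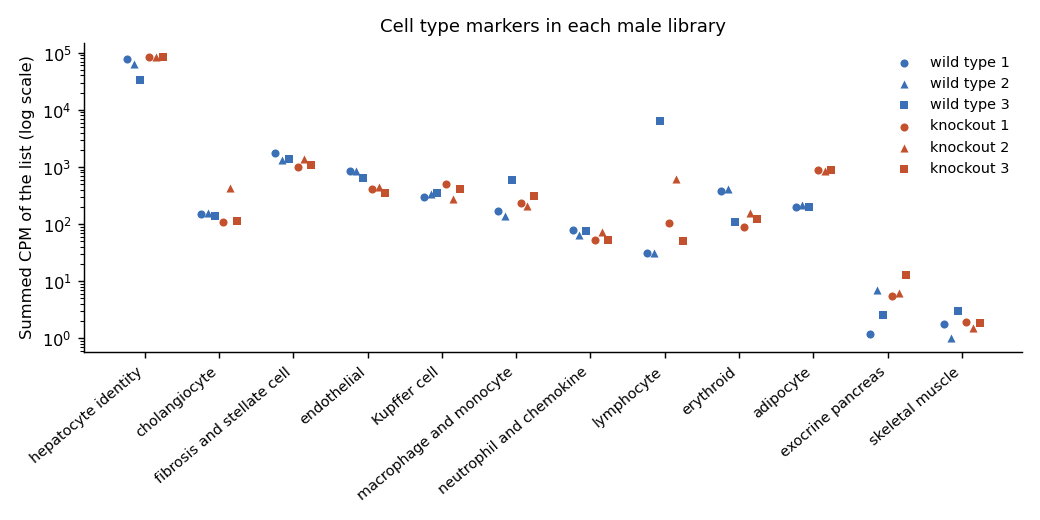
The summed CPM of each cell type list (vertical, log scale) is given for each male library, with colour for genotype and shape for library number. Endothelial sums separate the groups, the lymphocyte sum of wild-type male 3 (6392 CPM) is far above all others, and the cholangiocyte sum of knockout male 2 (430.5 CPM) stands alone.

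Interferon-response genes rose in part: of 32 tested members 9 rose and none fell, with a median of 0.46 (4 to 13 with 1 library left out, none with the clock covariate). Ifih1, a sensor of double-stranded RNA, stood at 10.9, 8.37 and 8.88 CPM against 31, 25.4 and 36.2 CPM (1.72 ± 0.25, adjusted p = 0.000461). Isg15 rose by 1.63 (SE 0.41), Oasl1 by 1.48 (SE 0.37) and Ifit3b by 2.75 (SE 0.59). The higher end of that range, 13, was reached without wild-type male 3, and the lower end, 4, without wild-type male 1.

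Growth and stress genes were called in both directions. With the clock covariate no member of the cell cycle, p53 or endoplasmic reticulum stress lists was called, and 1 immediate early gene was called lower. Of 37 cell cycle genes 3 fell (8.11% called, beside 6.42% falling of all genes) and none rose (median -1.09). Falling members numbered 1 without knockout male 1 and up to 5 without wild-type male 1, and without wild-type male 3, whose summed level was 506.7 CPM against 73.58 to 126.2 CPM in the other 5 libraries, 2 fell and 7 rose. Mcm7, a helicase subunit of DNA replication, fell from 46.3, 27.3 and 35.8 to 11.4, 15.5 and 12 CPM (-1.49 ± 0.25, adjusted p = 0.000921). Cdkn1a, the cell cycle inhibitor p21, stood at 59.9, 52.9 and 44.4 CPM against 3.79, 3.36 and 4.81 CPM (-3.71 ± 0.79, adjusted p = 0.00736; -1.357 and adjusted p = 0.26 with the clock covariate). It was 1 of 4 p53 targets that fell (2 without knockout male 1 or 3), with Sesn2, Bax and Gdf15, while 2 of the 20 rose, Bbc3 (1.12 ± 0.25) and Psrc1, which had no count in the wild type and 2, 5 and 7 in the knockout. Sesn2 lost its call without knockout male 3 (adjusted p = 0.052). Of 24 genes of endoplasmic reticulum stress and the amino acid response 4 fell and none rose (1 without knockout male 3, 2 without knockout male 1): Ddit3, the factor CHOP, from 48.8, 45.6 and 53.1 to 9.3, 14.1 and 14.1 CPM (-1.97 ± 0.42, adjusted p = 0.00474), Sesn2, Creld2 and Asns. Asns, asparagine synthetase, had 7, 72 and 24 counts against 3 in all (ratio 31.2, exact 95% interval 10.4 to 154 for counting error only), and its call was lost without wild-type male 2, knockout male 1 or knockout male 3 (adjusted p 0.077 to 0.081). Creld2 lost its call in 5 of the 6 fits with 1 library left out, the exception being without wild-type male 2 (adjusted p up to 0.11). Of 23 immediate early genes 4 fell and 2 rose (3 to 5 and 2 to 6 with 1 library left out, 6 without wild-type male 3): Klf2 fell by 1.67 (SE 0.23) and Nr4a1 by 2.14 (SE 0.45), and Zfp36, which destabilises cytokine mRNA, rose by 2.32 (SE 0.39). Of 12 genes of liver tumours and fetal liver 1 rose, Afp, alpha-fetoprotein, from 0.906, 0 and 0.252 to 5.5, 5.63 and 6.9 CPM (3.93 ± 0.68, adjusted p = 0.00122). Lgals4, an intestinal galectin, stood at 522, 598 and 595 CPM against 69, 77.6 and 44.7 CPM (-3.16 ± 0.43, adjusted p = 0.000284) and was called in every fit. Vil1, Fabp2 and the mucins of its list were not called. Tff2, of the same list, was called higher (adjusted p = 0.043) with no count in the wild type and 1, 17 and 0 in the knockout. Its call was lost in 4 of the 6 fits with 1 library left out.

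**Figure D5:**
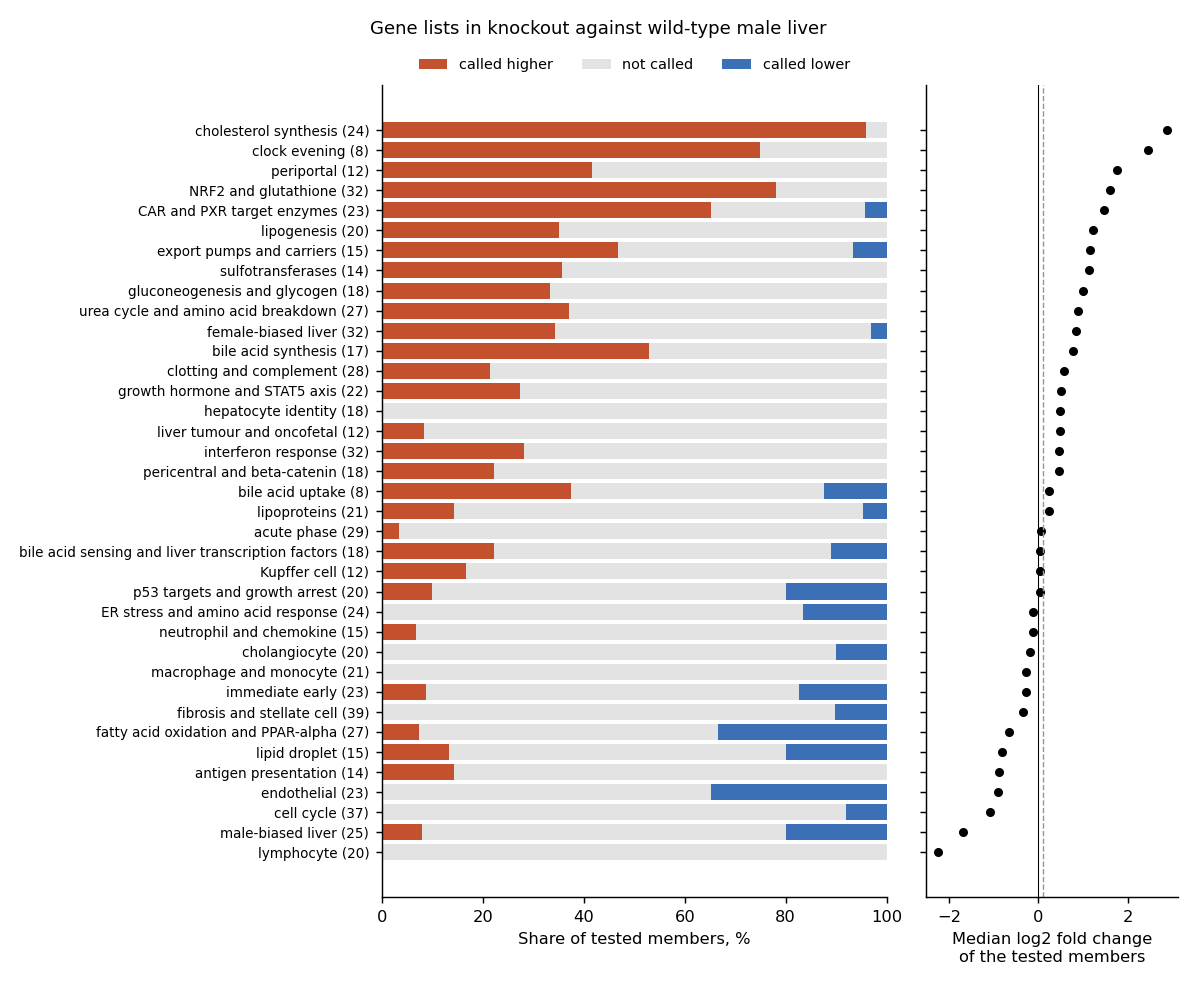
For each gene list with at least 8 tested members (number in brackets), the bars give the share of members that rose (orange), were not called (grey) or fell (blue), and the points the median log2 fold change; the dashed line is the median of all tested genes, 0.111. Cholesterol synthesis and evening clock genes have the highest medians (2.88 and 2.47) and lymphocyte and male-biased genes the lowest (-2.25 and -1.69).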

How the data were processed

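Per the labels' protocols, RNA was harvested with Trizol from frozen livers and made into Illumina libraries; the design text gives paired-end reads. Per the submitters' processing notes, the authors aligned reads with HISAT2 2.0.5 to GRCm38 and counted them per gene with featureCounts 1.5.0-p3; the strand setting is not given in the sources used here, so overlapping and antisense genes are uncertain. The whole-number counts deposited by the authors, without scaling, were used here. All 14 libraries entered 1 fit without a covariate (edgeR 4.0.16, R 4.3.3), with TMM scaling, genes kept by filterByExpr over 5 groups, and a 2-sided quasi-likelihood F-test using robust estimates; the code was first tested on simulated data. P-values had Benjamini-Hochberg adjustment over 17874 genes of all chromosomes. The common biological coefficient of variation was 0.442. Genes on X and Y were tested but are not described, and 27 damaged gene symbols were restored by gene ID.

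The comparison, the 43 gene lists and the rule for named genes were chosen with earlier results of these data known. Named are Abcb11, Malat1, the 15 protein-coding genes with the largest called fold in each direction (at least 5 CPM in the higher group, no overlap), all members of the bile acid lists and the 4 members with the smallest p of each other list; some that meet this rule are described by counts only. Bax, Ciart, Col1a1, Cyp2a4, Cyp2b10, Fabp2, G6pc, Gclm, Gdf15, Ggps1, Glul, Hmgcs1, Hmox1, Ighm, Mup20, Pck1, Ppara, Ugdh, Vil1 and the other NRF2 and clock genes named for their promoters or as not called lie outside it and were chosen after their values were seen. Some genes of the lists are counted but not reported here by name. The other settings tried were no filter, a filter of 1 CPM in 3 libraries, scaling by RLE or upper quartile, DESeq2 1.42.0, voom with quality weights (limma 3.58.1), the 6 male libraries alone, a replicate block, the clock score as a covariate and each library left out. P-values measure the spread between these libraries, and the design text, not the sample labels, says that they are separate mice. The chi-square per degree of freedom between libraries of a group was 23.55 to 195.2, so none was a copy of another. Promoters came from RefSeq; 578 of 717 promoters of list genes opened a transcript of the given annotation.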

Additional observations from a re-analysis of the deposited data

Results flagged for a closer look

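The knockout effect in females (non-tumour knockout against wild-type liver, n = 3 and 2) was set against that in males by edgeR's test of the difference itself. It differed (adjusted p under 0.05) for 1902 of all 17348 genes (11%). Given here are 21 such genes that were named by size or in the bile acid lists and were called in males. The male effect that chose them is also a term of the difference. The choice therefore favours differences opposed to the male effect, and a shared direction among them is not read as a result. Listed genes that differed but were not called in males, such as Nr1i3 and Abcg5, and genes not reported by name are left out. Values are log2 differences, female effect minus male effect. Among genes of bile acid synthesis they were -5.725 for Cyp7a1, -3.825 for Akr1d1, -2.733 for Cyp2c70 and -2.259 for Akr1c6, with female effects of -0.91, 0.37, 1.10 and -0.38. Among transporters they were -2.47 for Abcc2, -2.017 for Abcg8, -1.378 for Atp8b1, 2.432 for Slco1a1 and -1.99 for Abcb11, whose female effect was -3.93 against -1.94 in males. Among liver transcription factors they were -1.421 for Cebpa and -3.592 for Onecut1.

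Among genes that fell in males they were 3.823 for Myom1, 6.05 for Pdgfrl, 4.585 for Fam209, 3.403 for Cyp4a31 and 4.969 for Cdkn1a. Among genes without a count in the wild-type males they were -13.94 for Ptgds, -11.29 for Cyp2g1, -10.75 for 4933411K16Rik, -6.227 for Gipc2 and -5.544 for Slc1a1, and the sizes of these 5 depend on the prior count. The number of genes called was 564 without wild-type female 3 and 988 without wild-type female 2. Clock scores were 1.726 and 1.266 in the wild-type females and -0.2927, 3.123 and 4.861 in the non-tumour knockout females, and their part in these differences was not tested.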

How the results depend on the processing

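The 3589 calls (2476 up, 1113 down) became 362 (326 up, 36 down) with the clock score as a covariate, of which 340 were among the 3589, and 2013 (1198 up, 815 down) with the 6 males alone. DESeq2 gave 1893 falling genes. RLE, upper-quartile scaling, no filter (27943 genes), the 1 CPM filter and voom gave 3487, 3441, 3962, 3309 and 3560 calls, all within 1.5 times, with 59.4%, 59.5%, 60.9%, 56.7% and 64.5% of them upward, against 69% in the fit reported and 57.6% in DESeq2. Leaving out 1 male library gave 2398 to 3940 calls, 1696 to 2487 of them up and 651 to 1453 down, the lowest downward counts being 651 without knockout male 1 and 702 without knockout male 3.

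Deviations of same-numbered wild-type and knockout males correlated at -0.0456, -0.214 and -0.308 over 7740 genes, so the numbers were not read as pairs; a replicate block gave 3393 calls (2401 up, 992 down).

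Calls of the difference between females and males were 2971 in DESeq2, 3512 in voom and 564 to 2535 with 1 library left out (864 without non-tumour knockout female 1, 1205 without knockout male 1). Of the 157 called genes named, 111 kept their call in all 6 fits leaving out 1 male library, and 52 kept it with the clock covariate, where the cause was not tested. Under that covariate Per2 (-0.007964) and Creld2 (0.08983) changed sign. Counts limit genes near the floor of 3 counts per library, whose fold is a bound or an interval.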

Other observations

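By annotated gene type, antisense and lincRNA genes had higher medians than protein-coding genes. Of 13944 protein-coding genes 1923 rose and 979 fell (median 0.064), of 670 antisense genes 144 rose and 15 fell (median 0.987), and of 653 lincRNA genes 126 rose and 23 fell (median 0.568). Structural RNA types differed in direction. Of 17 mitochondrial tRNA genes none rose and 3 fell (median -0.635). Of 2 mitochondrial rRNA genes both fell (median -1.99), and of 2 other rRNA genes 1 fell (median -2.07). Of 45 snoRNA genes 9 rose and 1 fell (median 0.334), and of 20 snRNA genes 8 rose and 2 fell (median 3.68). Of 9 genes of type misc_RNA 4 rose and none fell (median 3.3). Of 8 scaRNA genes 1 rose and 1 fell (median -1.21). The share of counts on lincRNA genes was 0.2958% to 0.3311% in the wild-type males and 0.3703% to 0.4566% in the knockout males, without overlap, and 0.4078% to 0.6724% in the 8 female libraries. Because the strand setting is not given, reads of an antisense gene and of its partner cannot be told apart.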
